A study of Mus musculus with 12 samples.

Results

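Neuropeptides and their receptors were followed in the cortex of E4FAD mice as a set of 40 genes, made of 17 ligand genes (with Crhbp, which encodes a binding protein for a ligand, counted among them) and 23 receptor genes. The 40 members were found by symbol among the 50563 genes of the deposited count table, and each of the 40 matched 1 gene identifier. RNA-Seq libraries were made from 12 mice with 1 library per mouse. All mice carried human APOE4 in place of both mouse Apoe copies (APOE4+/+) and 1 copy of the 5FAD transgenes (5FAD-/+), so both groups share the amyloid model and no mouse without it is analysed here. The 7 CTRL mice received the vehicle with its antioxidants by oral gavage, and 5 DPAn-6 mice received docosapentaenoic acid n-6 in the same vehicle, at 700 mg/kg daily for 3 weeks. By the labels, 2 CTRL and 2 DPAn-6 mice were 12 months old, and 5 CTRL and 3 DPAn-6 mice were 14 months old. The 5FAD transgenes are driven by the neuronal Thy1 promoter. Per the paper's methods, both groups held females and males, but the sex of each mouse is not stated in the labels.

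Neuropeptides are cut from larger precursor proteins, stored in dense-core vesicles and released on strong or repeated firing. They act on G protein-coupled receptors, often at some distance from the site of release. In the cortex, most of them mark types of inhibitory interneuron (somatostatin, neuropeptide Y, cortistatin, corticotropin-releasing hormone), while cholecystokinin is also made by many excitatory neurons, and enkephalin, substance P and dynorphin are typical of the neighbouring striatum.

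Corticotropin-releasing hormone (Crh) and its binding protein (Crhbp) rose in DPAn-6 mice, the former by 0.68 and the latter by 0.46 on the log2 scale, and in both genes every DPAn-6 mouse lay above every CTRL mouse. Values are given as log2 CPM, the log2 of a gene's counts (plus 0.5) per 1000000 counts of the library, and differences as log2 fold changes of DPAn-6 against CTRL with their standard errors (SE). Crh and Crhbp were the members with an adjusted p below 0.05 by edgeR. Over 25 alternative settings, the adjusted p was below 0.05 in 13 for Crh and in 18 for Crhbp. Of the 16 ligand genes tested, 2 were higher and 0 lower at this threshold, against 0.408% of all 15688 genes tested that were higher and 1.14% that were lower. At an unadjusted p below 0.05, 5 ligand genes were higher (Crh, Crhbp, Cck, Cort and Pnoc) and 0 lower, against 5.51% of all genes higher and 9.02% lower. The fitted difference was above 0 for 13 of 16 ligand genes, with a median log2 fold change of 0.30, where 48.7% of all genes were above 0 and the median over all genes was 0.00. Of the 22 receptor genes tested, 0 had an adjusted p below 0.05 by edgeR or by limma-voom, while DESeq2 called 2. Over all 15688 genes tested, DESeq2 called 696, against 243 by edgeR and 224 by limma-voom. At an unadjusted p below 0.05, 1 receptor gene was higher (Sstr2) and 1 was lower (Oprm1), and the median log2 fold change of the receptors was 0.07 with 16 of 22 above 0. Gal and Galr1, with 11 and 35 counts in all 12 libraries, did not pass the filter on low counts. A count in whole tissue cannot tell fewer cells of a type from less RNA per cell.

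**Figure D1:**
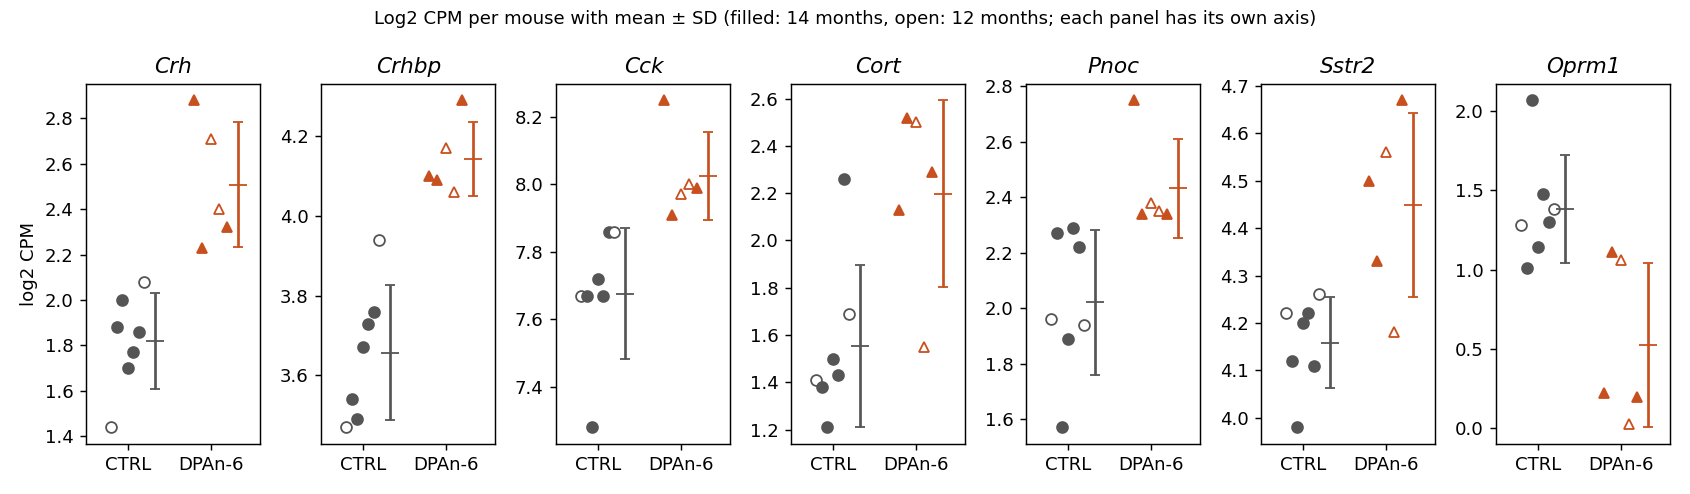
Log2 CPM of the 7 members with an unadjusted p below 0.05, 1 point per mouse, with filled points for mice of 14 months, open points for mice of 12 months, and the mean ± SD of each group beside them. The groups do not overlap in Crh, Crhbp, Cck and Pnoc, and Oprm1 is the only panel with DPAn-6 below CTRL.

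Total counts per library ranged from 15339098 to 19500154 in CTRL and from 15208803 to 26520251 in DPAn-6. Genes of cortical excitatory neurons summed to between 8952 and 11041 CPM, and a list of hypothalamic genes, the home of many peptides, summed to at most 2.81 CPM in any mouse. Genes of the striatum varied more. Their 14-gene sum ran from 743 to 1403 CPM in CTRL and from 702 to 1125 in DPAn-6. The sum of 20 interneuron genes was 1564 to 1791 CPM in CTRL and 1747 to 1953 in DPAn-6, with 13 of 20 fitted higher and 0 past an adjusted p of 0.05. That of 12 activity-dependent genes was 675 to 1142 in CTRL and 1054 to 1288 in DPAn-6, with 12 of 12 fitted higher and 2 (Bdnf and Nptx2) past it. Microglial genes summed to 911 to 1333 CPM in CTRL and 643 to 873 in DPAn-6, with 8 of 8 fitted lower and 3 past it, and a list of 8 choroid plexus genes summed to 1697, 1052 and 217 CPM in CTRL replicates 2, 5 and 3, to 13.8 to 36.4 in the other 4 CTRL mice and to 9.08 to 26.1 in DPAn-6. Of the 5 choroid plexus genes tested, 5 were fitted lower, 4 at an unadjusted p below 0.05 and 0 at an adjusted p below 0.05. None of these lists had a gene at 0 in all mice. CTRL replicate 3 stood apart, with the lowest interneuron sum (1564 CPM) and the highest astrocyte sum (11194 CPM). Its sums were also the highest for cortical excitatory genes (11041 CPM), hippocampal genes (549.9 CPM) and thalamic genes (127 CPM, the other mice up to 98.0). It had the lowest value of all 12 mice in Cck, Pnoc, Cort, Pdyn, Sstr1, Sstr2, Oprl1 and Crhr1, among others. Its value was the highest of all in Oprm1, Npy1r, Npy2r, Cckbr, Ntsr1 and Grp. The part of the activity-dependent and microglial genes in the members' values was not tested. The study names Nptx2 of the activity list and Tmem119 of the microglial list from these same samples, so they are not independent evidence.

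Ligand levels in the cortex spanned a wide range. Compared per kb of exon, Cck was the most abundant ligand gene, with a mean of 7.44 log2 CPM per kb, followed by Sst (7.30), Npy (6.83) and Penk (5.64). The next, Pdyn, lay at 3.13 and Crhbp at 3.01, and the lowest ligand genes that passed the filter were Trh at −0.29 and Nts at −1.07. Gal had −3.59, from 0 to 2 counts per mouse. The called genes were scarcer than the leading 4, with Crhbp at rank 6 and Crh, at 1.71, at rank 11 of the 17.

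**Figure D2:**
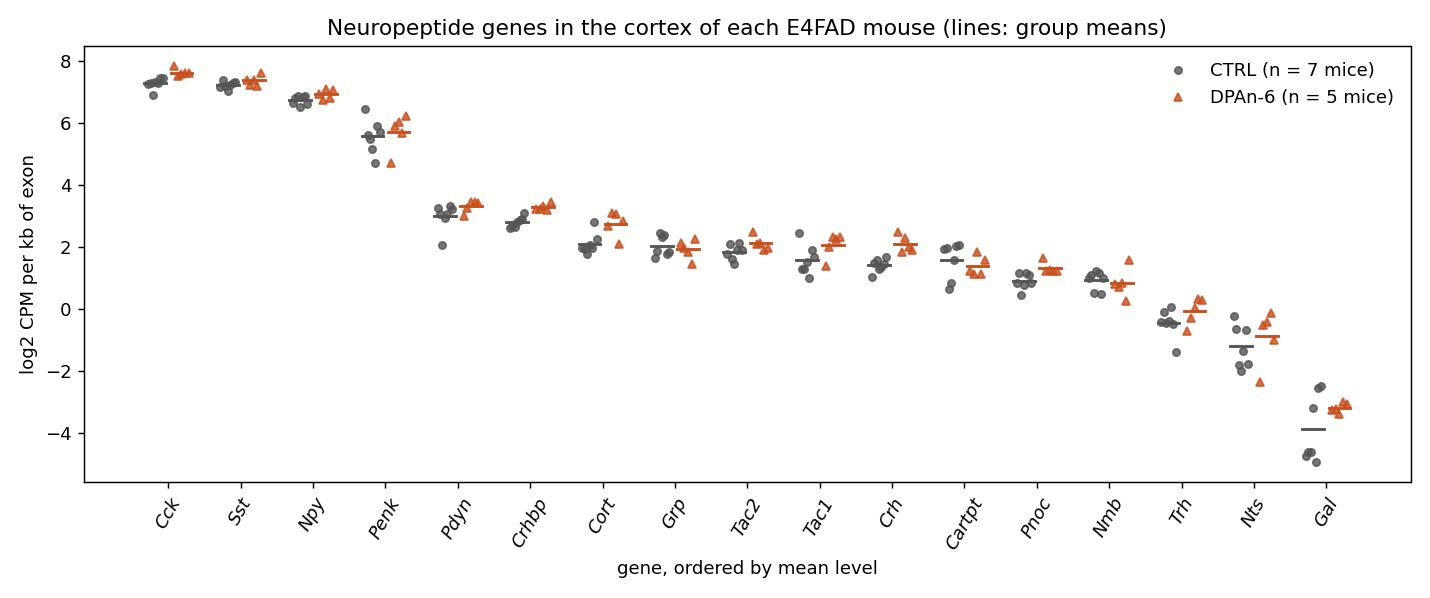
Level of the 17 ligand genes in log2 CPM per kb of exon, 1 point per mouse (CTRL circles, DPAn-6 triangles), with lines at the group means and genes ordered by mean level. Cck, Sst, Npy and Penk lie at 5.64 or above on average and the other 13 at 3.13 or below, and Penk is the abundant ligand whose points spread most within each group.

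The corticotropin-releasing hormone system holds the ligand Crh, the starter of the hormonal stress response and in the cortex a product of interneurons, its secreted binding protein Crhbp, which holds the peptide away from receptors, and the receptor Crhr1. Crh (ENSMUSG00000049796, GRCm38 chromosome 3, 19693401 to 19695396) is shown by the end of its coding sequence, since the gene rose and the released peptide is encoded there. The 129 coding bases before the stop codon (chr3:19693916-19694044, minus strand) hold the code for the peptide and, after it, for the residues at which the precursor is cut and amidated.
Crh: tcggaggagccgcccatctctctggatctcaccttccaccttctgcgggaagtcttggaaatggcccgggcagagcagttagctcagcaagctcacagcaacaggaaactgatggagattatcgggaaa

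Crh had between 1.44 and 2.08 log2 CPM in CTRL mice (median 1.86), from 46 to 75 counts. The DPAn-6 mice had 2.88, 2.23, 2.71, 2.40 and 2.32, from 80 to 135 counts. The groups did not overlap, and 5 of 5 DPAn-6 mice were above every CTRL mouse. The means were 1.82 ± 0.21 (SD, n = 7) and 2.51 ± 0.28 (SD, n = 5), or 3.53 and 5.75 CPM. For Crh the log2 fold change was 0.68 (SE 0.14, adjusted p = 0.0302 by edgeR's quasi-likelihood test), and the exact permutation p, two-sided, was 0.00126, the smallest that these groups allow. With the mean of the interneuron genes as covariate, the log2 fold change of Crh was 0.62 (SE 0.24, adjusted p = 0.265, unadjusted p = 0.0193). It was 0.69 (SE 0.20, adjusted p = 0.339, unadjusted p = 0.00413) with the choroid plexus gene Ttr. Ttr itself ran from 2.59 to 10.58 log2 CPM in CTRL and from 0.87 to 3.88 in DPAn-6 (log2 fold change −6.01, SE 1.46). In fits with Ttr, here and below, its part and that of the treatment therefore cannot be fully told apart. The same holds for fits with the interneuron mean. The sum of its genes was 1564 to 1791 CPM in CTRL and 1747 to 1953 in DPAn-6. With that mean as covariate, SEs were wider and 6 genes were called over all genes tested, in place of 243. The adjusted p of Crh lay between 0.0518 and 0.108 without CTRL replicate 1, 2, 4, 5 or 6 or DPAn-6 replicate 1, 3 or 4, each left out alone, and it was 0.319 in the mice of 14 months (log2 fold change 0.64, unadjusted p = 0.00534).

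Crhbp (ENSMUSG00000021680, chromosome 13, 95431371 to 95444924) had between 3.47 and 3.94 log2 CPM in CTRL mice (median 3.67), and 4.10, 4.09, 4.17, 4.06 and 4.29 in the DPAn-6 mice. The DPAn-6 values were close together and all above CTRL replicate 7, the highest CTRL mouse. The means were 3.66 ± 0.17 (SD, n = 7) and 4.14 ± 0.10 (SD, n = 5), from 172 to 520 counts per mouse. Crhbp had a log2 fold change of 0.46 (SE 0.09, adjusted p = 0.0214 by edgeR, exact permutation p = 0.00126). With the mean of the interneuron genes as covariate it was 0.56 (SE 0.15, adjusted p = 0.179, unadjusted p = 0.00227), and with Ttr 0.40 (SE 0.12, adjusted p = 0.360, unadjusted p = 0.0052). The adjusted p of Crhbp was 0.0507, 0.0772 and 0.0710 without DPAn-6 replicates 1, 3 and 5, and 0.226 in the mice of 14 months (log2 fold change 0.50, unadjusted p = 0.00115). Crhr1, the receptor through which cortical neurons answer the peptide, averaged 4.40 ± 0.38 log2 CPM in CTRL (SD, n = 7) and 4.57 ± 0.18 in DPAn-6 (SD, n = 5), and the fit gave 0.12 (SE 0.15, adjusted p = 0.790). The lowest value of Crhr1 was that of CTRL replicate 3, at 3.63, and the other 11 mice lay between 4.27 and 4.79.

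Somatostatin (Sst) and cortistatin (Cort) are related peptides of inhibitory interneurons that act on the same somatostatin receptors. Their coding ends are shown because these ligands share receptors and their precursors end in closely related code. The 42 coding bases before the stop codon are printed for Sst (chr16:23889732-23889773, minus strand) and Cort (chr4:149125267-149125308, minus strand), both in GRCm38, with capitals for bases that are identical when the codons are lined up without gaps, which holds for 31 of 39 lined-up bases (79.5%).
Sst: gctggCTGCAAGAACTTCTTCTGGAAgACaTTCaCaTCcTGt
Cort: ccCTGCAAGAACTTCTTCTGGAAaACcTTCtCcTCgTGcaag

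Sst (ENSMUSG00000004366, chromosome 16, 23889573 to 23890958) had between 6.56 and 6.94 log2 CPM in CTRL mice (median 6.78) and 6.93, 6.78, 6.93, 6.75 and 7.17 in the DPAn-6 mice. The groups overlapped, and 1 DPAn-6 mouse was above every CTRL mouse. The log2 fold change of Sst was 0.12 (SE 0.08, unadjusted p = 0.172, adjusted p = 0.570). Cort (ENSMUSG00000028971, chromosome 4, 149125034 to 149126763), a far scarcer transcript with 35 to 129 counts per mouse, had between 1.21 and 2.26 in CTRL (median 1.43) and 2.13, 2.52, 2.5, 1.55 and 2.29 in DPAn-6. CTRL replicate 6 and DPAn-6 replicate 4 lay among the mice of the other group. The log2 fold change of Cort was 0.63 (SE 0.19), with an unadjusted p of 0.00535 and an adjusted p of 0.127 by edgeR, and an exact permutation p of 0.0202. Its adjusted p by edgeR was below 0.05 in 1 of 25 alternatives, without CTRL replicate 6 (0.0466). The unadjusted call of Cort was lost with Ttr as covariate (log2 fold change 0.42, SE 0.25, unadjusted p = 0.119, adjusted p = 0.968). It was also lost with the interneuron mean (0.50, SE 0.32, unadjusted p = 0.146, adjusted p = 0.448), where the SE rose from 0.19 to 0.32. Whether Cort and Sst differ from each other in their response was not tested.

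The 4 somatostatin receptor genes among the members, whose products inhibit the cells that carry them, had levels between 2.85 (Sstr3) and 3.18 (Sstr2) log2 CPM per kb. Sstr2 (ENSMUSG00000047904, chromosome 11, 113619342 to 113626028) had between 3.98 and 4.26 log2 CPM in CTRL (median 4.20) and 4.50, 4.33, 4.56, 4.18 and 4.67 in DPAn-6. Of the DPAn-6 mice, 4 were above every CTRL mouse and replicate 4 lay among them. Its log2 fold change was 0.28 (SE 0.09, unadjusted p = 0.00568, adjusted p = 0.131, exact permutation p = 0.00631), and the adjusted p was below 0.05 in 1 of 25 alternatives, by DESeq2 (0.0482). With the interneuron mean as covariate the log2 fold change of Sstr2 was 0.47 (adjusted p = 0.192). Sstr1, Sstr3 and Sstr4 had log2 fold changes of 0.15 (SE 0.13), 0.07 (SE 0.07) and −0.15 (SE 0.10), with unadjusted p-values from 0.15 to 0.331.

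Cholecystokinin (Cck), a peptide of both inhibitory and excitatory cortical neurons, was the ligand with the most reads. The gene (ENSMUSG00000032532, chromosome 9, 121489824 to 121495694) had between 7.28 and 7.86 log2 CPM in CTRL mice (median 7.67) and 8.25, 7.91, 7.97, 8.0 and 7.99 in the DPAn-6 mice. The groups did not overlap, although DPAn-6 replicate 2 lay close to CTRL replicates 6 and 7, which both had 7.86. The means were 206 CPM in CTRL and 261 CPM in DPAn-6. For Cck the log2 fold change was 0.32 (SE 0.09, unadjusted p = 0.00211, adjusted p = 0.0830 by edgeR, exact permutation p = 0.00253). The adjusted p of Cck was below 0.05 in 2 of 25 alternatives, without CTRL replicate 3, the lowest CTRL mouse (log2 fold change 0.27, adjusted p = 0.0190), and by DESeq2 on all mice (adjusted p = 0.0193). With Ttr as covariate the unadjusted call of Cck was lost (log2 fold change 0.24, SE 0.11, edgeR unadjusted p = 0.056, adjusted p = 0.802). With the interneuron mean the log2 fold change was 0.52 (SE 0.13, adjusted p = 0.164), and without DPAn-6 replicate 1 the adjusted p was 0.214. Its brain receptor Cckbr (ENSMUSG00000030898, chromosome 7, 105425731 to 105470898) had between 6.03 and 6.30 log2 CPM in CTRL (median 6.14) and 6.23, 6.11, 6.07, 6.27 and 6.18 in DPAn-6. The DPAn-6 values lay within the CTRL range, and the log2 fold change of Cckbr was 0.01 (SE 0.07, adjusted p = 0.962).

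Groups did not overlap in 4 of the 16 ligand genes tested (Crh, Crhbp, Cck and Pnoc), all higher in DPAn-6, and in 0 of 22 receptor genes, against 3.22% of all genes tested, with 1.73% separated upwards and 1.49% downwards. By the exact permutation test, 5 ligand genes and 3 receptor genes (Sstr2, Oprm1 and Oprd1) passed an unadjusted 0.05, 8 of 38 members, where 15.8% of all genes tested did.

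**Figure D3:**
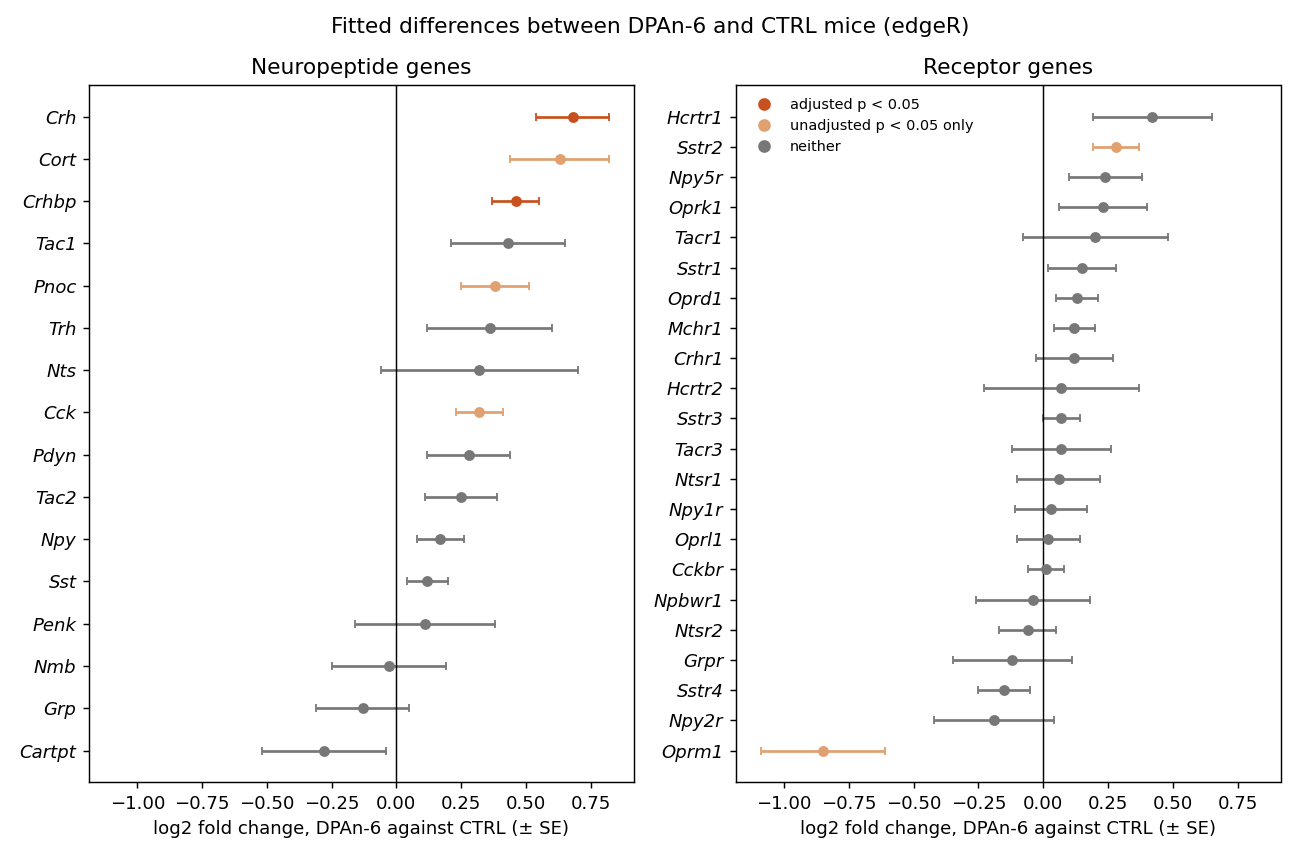
Log2 fold change (DPAn-6 against CTRL, edgeR) with its SE for the 16 ligand genes (left) and 22 receptor genes (right) that were tested, coloured by whether the adjusted or only the unadjusted p was below 0.05. Crh, with 0.68, is the highest ligand gene, and Oprm1, with −0.85, the lowest of all members.

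Promoter sequence is shown for Sst and for the members higher in DPAn-6 at an unadjusted p below 0.05 that have an entry in the RefSeq table, which leaves out Crh and Pnoc. Somatostatin's promoter is the classic home of the cAMP response element (CRE), the site bound by the activity-dependent factor CREB. In that table (GRCm38.p6), 32 of the 40 members were found, with 40 windows, since some genes have several starts. In the 250 bases before each start, the full palindrome TGACGTCA was found in 3 of the 40 windows (Sst, Sstr2 and Cartpt) and in 1.55% of all 32851 windows of the table. Its first letters, TGACG, or CGTCA where they lie on the other strand, were found in 14 of the 40 windows and in 17.8% of all windows, those inside the palindrome included. The windows of Crhbp (chr13:95444832-95445081, minus strand), Cck (chr9:121495695-121495944, minus strand), Cort (chr4:149126764-149127013, minus strand), Sstr2 (chr11:113619077-113619326, plus strand) and Sst (chr16:23890845-23891094, minus strand) are printed in the direction of transcription, with every match of these letters in capitals. The match begins 64 bases before the start in Crhbp, 47 in Cck and 18 in Cort, and the full element begins 58 bases before it in Sstr2 and 48 in Sst. A match of letters is not a measured site.
Crhbp: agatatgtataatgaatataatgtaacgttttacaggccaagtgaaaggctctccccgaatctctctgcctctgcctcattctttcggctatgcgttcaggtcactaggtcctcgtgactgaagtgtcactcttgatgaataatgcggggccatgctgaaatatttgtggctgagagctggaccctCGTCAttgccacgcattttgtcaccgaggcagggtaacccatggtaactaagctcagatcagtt
Cck: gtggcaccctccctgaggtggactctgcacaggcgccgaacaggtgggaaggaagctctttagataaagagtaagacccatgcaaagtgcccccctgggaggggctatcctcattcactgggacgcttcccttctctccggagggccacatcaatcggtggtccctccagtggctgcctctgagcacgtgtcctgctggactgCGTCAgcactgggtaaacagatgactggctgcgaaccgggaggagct
Cort: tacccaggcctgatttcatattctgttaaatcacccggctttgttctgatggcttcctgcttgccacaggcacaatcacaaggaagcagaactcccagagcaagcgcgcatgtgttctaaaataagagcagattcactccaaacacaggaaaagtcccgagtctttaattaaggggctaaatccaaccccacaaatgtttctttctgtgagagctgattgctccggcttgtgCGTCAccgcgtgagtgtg
Sstr2: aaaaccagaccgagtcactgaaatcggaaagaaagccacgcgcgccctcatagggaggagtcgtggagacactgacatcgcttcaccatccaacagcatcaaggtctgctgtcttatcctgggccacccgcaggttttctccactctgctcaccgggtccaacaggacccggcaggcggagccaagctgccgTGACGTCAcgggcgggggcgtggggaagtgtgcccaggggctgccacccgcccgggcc
Sst: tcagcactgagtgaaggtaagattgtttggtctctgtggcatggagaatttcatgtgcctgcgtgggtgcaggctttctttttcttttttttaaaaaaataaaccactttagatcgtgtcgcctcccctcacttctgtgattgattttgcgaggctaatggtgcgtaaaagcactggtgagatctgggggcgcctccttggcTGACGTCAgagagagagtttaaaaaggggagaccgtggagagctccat

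The opioid genes include Oprm1, the member with the lowest log2 fold change, and Pnoc, a ligand gene whose groups did not overlap. Pnoc, the precursor of nociceptin (ENSMUSG00000045731, chromosome 14, 65400673 to 65425472), had between 1.57 and 2.29 log2 CPM in CTRL (median 1.96) and 2.75, 2.34, 2.38, 2.35 and 2.34 in DPAn-6, from 45 to 134 counts per mouse. All DPAn-6 mice were above every CTRL mouse, but 4 of them, at 2.34 to 2.38, were close to CTRL replicate 5, at 2.29. Pnoc had a log2 fold change of 0.38 (SE 0.13, unadjusted p = 0.0130, adjusted p = 0.189, exact permutation p = 0.0101), and its adjusted p was below 0.05 in 0 of 25 alternatives, with the unadjusted call lost in the mice of 14 months (log2 fold change 0.39, unadjusted p = 0.0651). The nociceptin receptor gene Oprl1 (ENSMUSG00000027584, chromosome 2, 181715016 to 181720985) had between 4.41 and 5.34 in CTRL (median 5.24) and 5.26, 5.27, 5.24, 5.07 and 5.13 in DPAn-6, and its log2 fold change was 0.02 (SE 0.12). Apart from the 4.41 of CTRL replicate 3, the mice lay within 5.07 and 5.34.

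Oprm1, the mu opioid receptor that endorphins, enkephalins and morphine bind (ENSMUSG00000000766, chromosome 10, 6758506 to 7038198), had between 1.01 and 2.07 log2 CPM in CTRL mice (median 1.30) and 0.22, 1.11, 1.06, 0.03 and 0.20 in DPAn-6 mice. It was below the CTRL mean in 5 of 5 DPAn-6 mice, and DPAn-6 replicates 2 and 3 lay above only the lowest CTRL mouse. Counts were low, at 31 to 64 per CTRL mouse and 15 to 41 per DPAn-6 mouse. The log2 fold change of Oprm1 was −0.85 (SE 0.24), with an unadjusted p of 0.00325, an adjusted p of 0.100 by edgeR and an exact permutation p of 0.00505. Over 25 alternatives the log2 fold change of Oprm1 ranged from −1.54 (interneuron mean as covariate, adjusted p = 0.114) to −0.70, and the adjusted p was below 0.05 in 1 of them, by DESeq2 (0.0256). Oprm1 exons share 96 bases, 1.19% of their length, with Ipcef1 on the opposite strand, so reads there may not be told apart. Ipcef1 had 1671 to 4366 counts per mouse and a log2 fold change of 0.16 (SE 0.11). The delta receptor Oprd1 had a log2 fold change of 0.13 (SE 0.08, unadjusted p = 0.107, exact permutation p = 0.0391), and the kappa receptor Oprk1 of 0.23 (SE 0.17, unadjusted p = 0.179). On TMM-scaled values the exact permutation test no longer passed 0.05 for Oprd1.

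Penk (the enkephalin precursor), Tac1 (substance P) and Pdyn (dynorphin) are made in small amounts by cortical neurons and in large amounts by striatal projection neurons. Penk had between 5.44 and 7.17 log2 CPM in CTRL and between 5.42 and 6.96 in DPAn-6, a range of more than 1.5 within each group and a pooled SD of 0.57, against 0.17 for Cck and 0.14 for Sst. The log2 fold changes of Penk, Tac1 and Pdyn were 0.11 (SE 0.27), 0.43 (SE 0.22) and 0.28 (SE 0.16), with unadjusted p-values of 0.683, 0.0740 and 0.105. Across the 12 mice, their log2 CPM moved with the summed CPM of the 14 striatal genes, none of which is a member. Pearson's r with the log2 of that sum was 0.897 for Penk (permutation p = 8e-05), 0.910 for Tac1 (p = 9e-05) and 0.690 for Pdyn (p = 0.00616), with adjusted p-values over these 3 relations of 0.000135, 0.000135 and 0.00616. Spearman's rho was 0.937, 0.902 and 0.811, with permutation p-values of 5e-05, 0.00018 and 0.00238 and adjusted p-values of 0.00015, 0.00027 and 0.00238. On the log2 scale of the sum, CTRL replicate 3 and DPAn-6 replicate 1 lay farthest from its median, and r without these 2 mice was 0.918, 0.933 and 0.730. After each group was centred on its mean, r was 0.897, 0.955 and 0.686. With the mean of the striatal genes as covariate, the log2 fold change was −0.20 (SE 0.16) for Penk, 0.19 (SE 0.11) for Tac1 and 0.14 (SE 0.13) for Pdyn, so that of Penk changed sign and none passed an unadjusted 0.05. Foxp1 and Bcl11b of the striatal list are also made by cortical neurons.

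**Figure D4:**
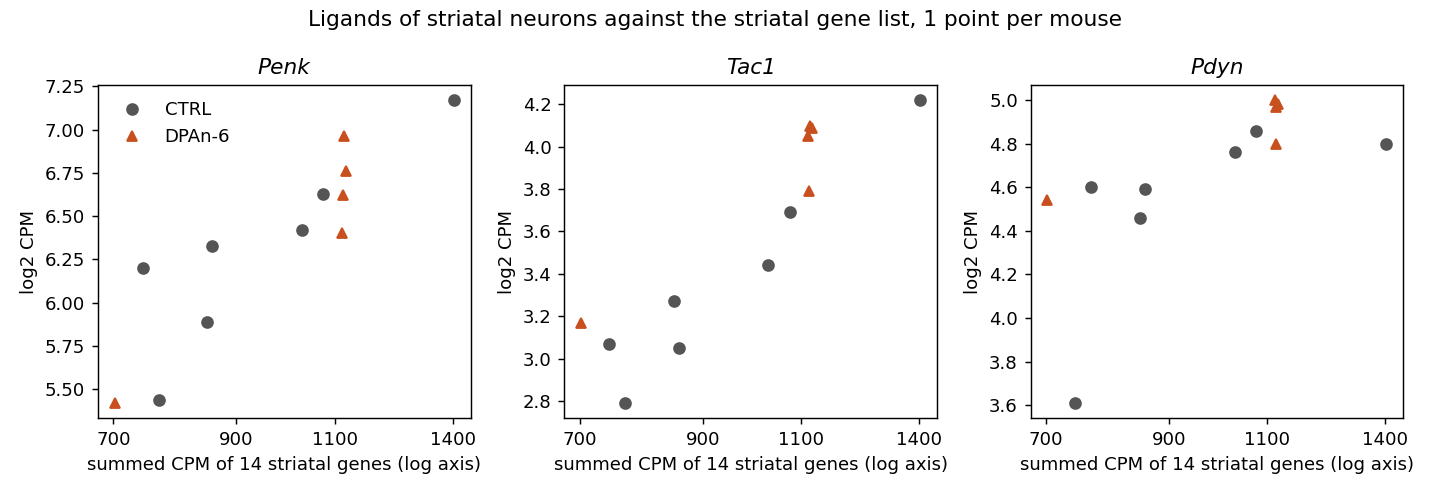
Log2 CPM of Penk, Tac1 and Pdyn against the summed CPM of 14 striatal genes on a log axis, 1 point per mouse (CTRL circles, DPAn-6 triangles). In each panel, CTRL replicate 1, with a sum of 1403 CPM, lies farthest right, and the DPAn-6 mouse at 702 CPM lies farthest left and apart from the other 4 DPAn-6 mice.

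Among the tachykinins, Tac2 (neurokinin B) averaged 2.31 ± 0.25 log2 CPM in CTRL (SD, n = 7) and 2.59 ± 0.22 in DPAn-6 (SD, n = 5), and its log2 fold change was 0.25 (SE 0.14, unadjusted p = 0.0959). The substance P receptor Tacr1 and the neurokinin B receptor Tacr3 had log2 fold changes of 0.20 (SE 0.28) and 0.07 (SE 0.19), the latter from 12 to 25 counts per mouse. Tacr1 varied between mice by as much as 0.94 to 2.47 log2 CPM within CTRL.

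Neuropeptide Y (Npy), an inhibitory co-transmitter of interneurons (ENSMUSG00000029819, chromosome 6, 49822710 to 49829507), had between 5.70 and 6.06 log2 CPM in CTRL (median 6.01) and 6.12, 5.93, 6.28, 5.99 and 6.26 in DPAn-6. The groups overlapped, with 3 of 5 DPAn-6 mice above every CTRL mouse. Npy had a log2 fold change of 0.17 (SE 0.09, unadjusted p = 0.0811, exact permutation p = 0.0593). Its receptors had log2 fold changes of 0.03 (SE 0.14) for Npy1r, the postsynaptic receptor, −0.19 (SE 0.23) for Npy2r, the presynaptic receptor, and 0.24 (SE 0.14, unadjusted p = 0.104) for Npy5r. None of the NPY genes passed an unadjusted 0.05 in the main edgeR fit. In some alternative edgeR fits Npy did, such as library totals without TMM (unadjusted p = 0.0440, adjusted p = 0.321). With Ttr as covariate, its log2 fold change was 0.31 (SE 0.11, unadjusted p = 0.0136, adjusted p = 0.518).

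**Figure D5:**
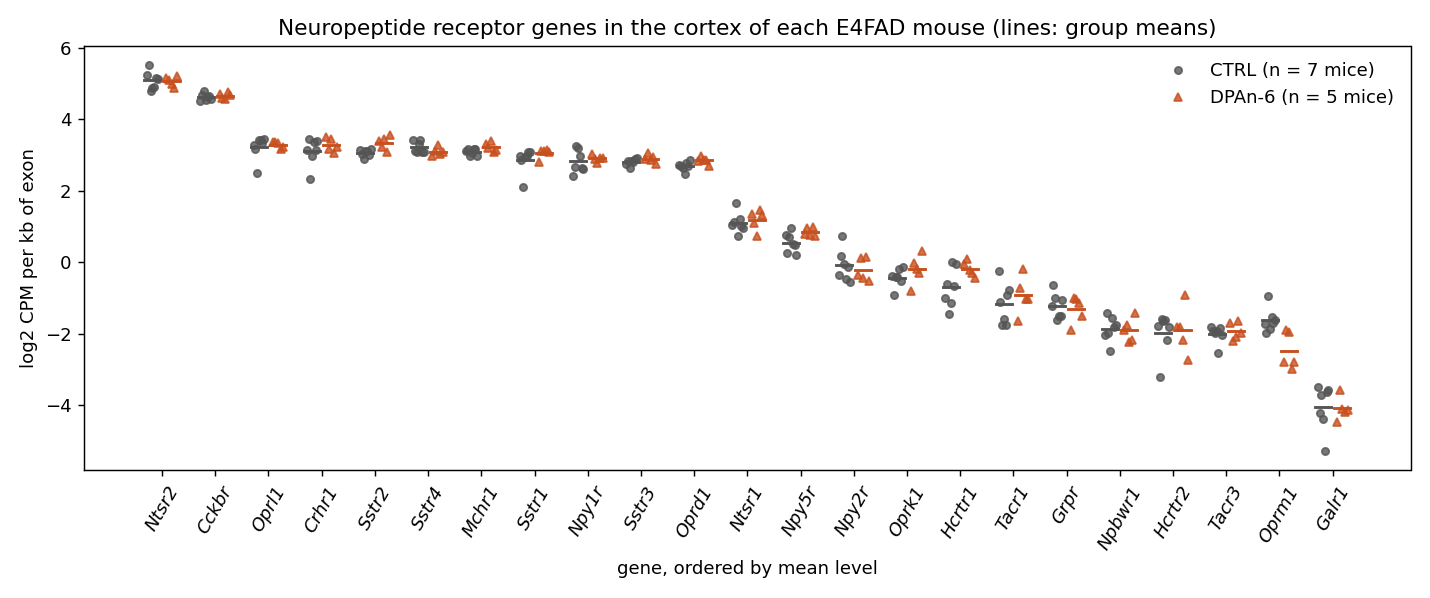
Level of the 23 receptor genes in log2 CPM per kb of exon, 1 point per mouse (CTRL circles, DPAn-6 triangles), with lines at the group means and genes ordered by mean level. Ntsr2 and Cckbr lead with means of 5.08 and 4.63, the next 9 genes lie between 3.25 and 2.76, and the group lines are farthest apart in Oprm1.

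The remaining members did not pass an unadjusted 0.05 in the main edgeR fit. Some did in single alternatives, such as Trh with Ttr as covariate (edgeR unadjusted p = 0.0108, adjusted p = 0.468). Ntsr2 (ENSMUSG00000020591, chromosome 12, 16653382 to 16660227), a neurotensin receptor known from astrocytes, was the most abundant receptor gene per kb. It had between 6.43 and 7.15 log2 CPM in CTRL (median 6.77) and 6.80, 6.74, 6.63, 6.52 and 6.86 in DPAn-6, all within the CTRL range, with a log2 fold change of −0.06 (SE 0.11). The 8 astrocyte genes summed to 7137 to 11194 CPM in CTRL and 6397 to 7971 in DPAn-6, and their part in the value of Ntsr2 was not tested. The neuronal receptor Ntsr1 had a log2 fold change of 0.06 (SE 0.16), and neurotensin itself (Nts), with 4 to 18 counts per mouse, of 0.32 (SE 0.38). The bombesin-like ligands Grp and Nmb had −0.13 (SE 0.18) and −0.03 (SE 0.22), and Grpr had −0.12 (SE 0.23). Nmb shares 163 exon bases, 20.6% of its own, with Sec11a on the same strand. Cartpt, a peptide linked to feeding and reward, had −0.28 (SE 0.24), and Trh, thyrotropin-releasing hormone, 0.36 (SE 0.24). The orexin receptors had 0.42 (SE 0.23, unadjusted p = 0.0890 in the main edgeR fit) for Hcrtr1 and 0.07 (SE 0.30) for Hcrtr2. The melanin-concentrating hormone receptor Mchr1 had 0.12 (SE 0.08), and the neuropeptide B and W receptor Npbwr1 −0.04 (SE 0.22).

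Other genes of neuropeptide systems were taken from lists written for the purpose, with 44 ligand or granin genes and 42 receptor genes in the table. Only 11 of the 44 and 21 of the 42 passed the filter. Of the 11, 3 had an adjusted p below 0.05 and all 3 were higher in DPAn-6. Of all genes tested, 0.408% were higher and 1.14% lower at this threshold. Adcyap1 (PACAP) averaged 3.24 ± 0.19 log2 CPM in CTRL (SD, n = 7) and 4.04 ± 0.15 in DPAn-6 (SD, n = 5) (log2 fold change 0.77, SE 0.10, adjusted p = 0.00302). The granin Scg2, a dense-core vesicle protein, had a log2 fold change of 0.47 (SE 0.09, adjusted p = 0.0214), and Vgf, a granin-like precursor induced by neurotrophins, of 0.45 (SE 0.10, adjusted p = 0.0412). The study names Adcyap1 and Vgf from these same samples, so they are not independent evidence. Of the 21 receptor genes, 1 was called, Vipr2, a receptor for VIP and PACAP, with 6 to 53 counts per mouse and a log2 fold change of 1.20 (SE 0.26, adjusted p = 0.0308). The median log2 fold change was 0.30 over the 11 ligand and granin genes and −0.05 over the 21 receptor genes, against 0.00 over all genes tested.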

How the data were processed

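Cortical RNA of 12 mice was sequenced from poly(A)-selected libraries. Per the paper's methods and the submitters' processing notes, the authors aligned reads with STAR 2.5.3a to GRCm38 with Ensembl annotation and deposited raw counts per gene. The strand setting is not given in the sources used here. Symbols, positions and exon lengths came from GENCODE M21 (GRCm38), promoters from RefSeq. The members and lists were chosen with earlier results of these data known.

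The test for 15688 genes was edgeR's glmQLFTest (edgeR 4.0.16, R 4.3.3) after TMM and filterByExpr by group, without covariates and with Benjamini-Hochberg adjustment, and SEs are the log2 fold change over the root of F. Log2 CPM used library totals and a pseudocount of 0.5. For single genes the mean log2 CPM was also permuted exactly, two-sided, through the 792 ways to split the mice. Named with values in every mouse were members with an unadjusted p below 0.05 or no overlap, and the 3 most abundant ligands and receptors per kb. Alternatives used limma 3.58.1, DESeq2 1.42.0, other filters, scalings, covariates and samples. Each library came from 1 mouse, so p-values measure the spread between mice, and counting error grows for genes under 100 counts. In 3 simulated data sets of 15560 genes on average, edgeR recovered 91.1% of genes changed by 1 on the log2 scale, 44.0% of those changed by 0.5, and 7.62% of its calls were false. The simulated counts had each gene's fitted spread but no outlying mouse and no difference in dissected tissue. These rates may therefore not hold for the real mice. Figures were drawn with Python 3.11.15 and matplotlib 3.10.9. No library was left out.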

Additional observations from a re-analysis of the deposited data

Results flagged for a closer look

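The 38 members in 2 groups gave 76 groups of values. In 11 cases among them, the lowest or highest mouse stood farther from the rest of its group than Dixon's 95% limit allows. Chance gives about 1 in 20 for a single group, but the 76 groups come from the same mice and are not independent. CTRL replicate 3 was the lowest of its group in Cck (7.28 log2 CPM, the others from 7.67), Pdyn (3.61, the others from 4.46), Sstr1 (3.13, the others from 3.89), Oprl1 (4.41, the others from 5.09) and Crhr1 (3.63, the others from 4.27). DPAn-6 replicate 1 was the highest of its group in Cck (8.25, the others up to 8.0) and in Pnoc (2.75, the others up to 2.38), and the lowest in Sstr1 (3.83, the others from 4.12). Trh was lowest in CTRL replicate 7 (−0.91, the others from 0.00), Tacr3 in CTRL replicate 5 (−0.64, the others from −0.11) and Hcrtr2 in CTRL replicate 2 (−0.57, the others from 0.46), all with few counts.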

How the results depend on the processing

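The 2 ligand genes called (Crh and Crhbp) were also the calls by limma-voom, without TMM, with DESeq2 size factors, with other filters, and with age, Xist or the striatal mean as covariate, and DESeq2 added Cck. The count was 0 in place of 2 with Ttr as covariate, in the mice of 14 months only, with the replicate block and with the interneuron mean (an alternative added after seeing the data), and from 0 to 3 with each mouse left out (0 without DPAn-6 replicate 1 or 3, and 1 without CTRL replicate 1, 2, 4 or 5 or DPAn-6 replicate 4 or 5). Among these 25 alternatives the adjusted p ranged from 0.00155 to 0.339 for Crh and from 0.00019 to 0.360 for Crhbp, and their log2 fold changes from 0.58 to 0.76 and from 0.40 to 0.56. For the receptors the count of 0 became 2 by DESeq2 (Oprm1 and Sstr2) and was 0 with any mouse left out. For the other neuropeptide system genes the count of 4 became 0 with Ttr as covariate, 2 with the striatal mean, 0 in the mice of 14 months, 1 with the block and 0 with the interneuron mean, and 1 to 6 with each mouse left out (1 without DPAn-6 replicate 1, 4 or 5, and 2 without CTRL replicate 4 or DPAn-6 replicate 2 or 3). The cause was not tested. The exact permutation count of 8 members was 7 on TMM-scaled values and 7 to 10 with each mouse left out. Over all genes, the count of 243 was 696 by DESeq2, 160 with the striatal mean, 69 with the block, 17 with Ttr, 9 in the mice of 14 months, 6 with the interneuron mean, and 64 (without DPAn-6 replicate 3) to 953 (without CTRL replicate 3) with each mouse left out. With library totals or DESeq2 size factors in place of TMM, 29 of 38 members were still fitted higher. Mice with the same replicate number had correlated deviations of 0.09, 0.02, −0.12, 0.22 and −0.07 for numbers 1 to 5, so the numbers were not taken as pairs. With the block, which uses replicates 1 to 5, the adjusted p was 0.129 for Crh and 0.0691 for Crhbp. In the 7 members with an unadjusted p below 0.05, 0 of the alternatives turned the direction. Depth limits the genes with few counts, such as Oprm1 (15 to 64 per mouse), Cort (35 to 129) and Crh (46 to 135).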

Other observations

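The interaction of treatment with age, fitted by edgeR over all genes, had an unadjusted p below 0.05 in 0 of 38 members tested and an adjusted p below 0.05 in 1 of 15688 genes. With 2 mice of 12 months in each group, this fit could miss a difference between the ages. Among genes of neuropeptide systems that are no member, Vip had a log2 fold change of 0.22 (SE 0.10, unadjusted p = 0.0357), Chga, a granin, of 0.32 (SE 0.08, adjusted p = 0.0533), and Npr3, the clearance receptor of natriuretic peptides, of 0.40 (SE 0.16, unadjusted p = 0.0219). Chgb, the granin with the most counts, had 0.05 (SE 0.12), and the PACAP receptor Adcyap1r1 −0.15 (SE 0.10).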
